A study of Mus musculus with 4 samples.

Results

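The 10 CXC chemokine genes Cxcl1, Cxcl2, Cxcl3, Cxcl5, Cxcl9, Cxcl10, Cxcl12, Cxcl13, Cxcl14 and Cxcl16 were followed in mouse skin, out of 39179 genes with a read count. They were taken by name, with Ensembl identifiers matched to symbols through GENCODE vM21, and split into 4 neutrophil-attracting, 2 interferon-induced and 4 homeostatic genes. All 10 had enough reads to be tested, among 16651 genes tested in all. The libraries were 2 of wild-type (WT) skin and 2 of lesional skin from mice lacking Itch (Itch KO), all on the C57BL/6 background, from total RNA of flash-frozen tissue. The labels name no allele, age or treatment, give inflammation as the phenotype of every library including WT, and do not state whether each library is from a different animal. P-values therefore measure the spread between these libraries, which may be technical.

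Chemokines are small secreted proteins that direct the movement of leukocytes along gradients. CXC chemokines with a glutamate-leucine-arginine (ELR) motif draw neutrophils through the receptor Cxcr2, and their genes are rapidly induced by interleukin-1, tumour necrosis factor and interleukin-17 through NF-kB. Cxcl9 and Cxcl10 are induced by interferons and draw T cells and NK cells through Cxcr3. The homeostatic members are made without inflammation and position cells in tissue: Cxcl12 acts on Cxcr4, Cxcl13 on Cxcr5 of B cells and Cxcl16 on Cxcr6, while Cxcl14 is made at high levels by skin epithelium. Itch is a ubiquitin ligase whose loss in mice is known for skin inflammation.

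The promoters of 3 of the ELR genes and of Cxcl10 are shown because they carry motifs of their known inducers. Each window runs from 250 bases before to 50 bases after a RefSeq start site on GRCm38.p6, in transcription direction, and windows were found for 8 of the 10 genes, Cxcl5 and Cxcl16 not among them. Capitals mark matches to the NF-kB consensus and, in Cxcl10, also to the interferon response element core, which is GAAA, NN and GAAA in a row, both searched on both strands.
Cxcl1 promoter, chr5:90890995-90891294, plus strand: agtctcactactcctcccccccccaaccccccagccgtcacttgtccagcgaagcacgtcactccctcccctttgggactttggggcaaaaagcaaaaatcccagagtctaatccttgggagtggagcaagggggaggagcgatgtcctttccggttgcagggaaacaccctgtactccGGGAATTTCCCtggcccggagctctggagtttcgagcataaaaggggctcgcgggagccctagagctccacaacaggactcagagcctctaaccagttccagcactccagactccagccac
Cxcl2 promoter, chr5:90903649-90903948, plus strand: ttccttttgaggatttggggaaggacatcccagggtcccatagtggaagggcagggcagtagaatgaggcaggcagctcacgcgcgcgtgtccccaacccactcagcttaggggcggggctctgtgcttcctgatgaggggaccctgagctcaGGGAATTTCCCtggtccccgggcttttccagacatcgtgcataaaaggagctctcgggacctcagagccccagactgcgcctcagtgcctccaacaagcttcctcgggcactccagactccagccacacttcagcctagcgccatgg
Cxcl3 promoter, chr5:90785851-90786150, plus strand: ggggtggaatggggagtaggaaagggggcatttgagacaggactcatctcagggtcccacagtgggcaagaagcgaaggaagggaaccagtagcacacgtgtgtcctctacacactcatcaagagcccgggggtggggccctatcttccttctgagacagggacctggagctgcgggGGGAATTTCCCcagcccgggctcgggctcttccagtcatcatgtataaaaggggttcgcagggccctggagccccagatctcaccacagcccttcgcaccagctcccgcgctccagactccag
Cxcl10 promoter, chr5:92348840-92349139, minus strand: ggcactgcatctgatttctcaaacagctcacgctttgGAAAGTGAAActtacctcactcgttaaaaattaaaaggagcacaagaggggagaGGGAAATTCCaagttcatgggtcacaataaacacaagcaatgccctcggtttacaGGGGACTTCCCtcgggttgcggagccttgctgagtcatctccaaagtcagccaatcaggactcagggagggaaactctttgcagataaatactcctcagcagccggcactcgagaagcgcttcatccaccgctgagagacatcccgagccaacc
In Cxcl1, Cxcl2 and Cxcl3 the capitals are 1 run of the same letters, where a match on each strand overlaps in all but its end base. It begins at -71, -97 and -73 relative to the start site. In Cxcl10 the first run of capitals is the interferon element, at -213, and the other 2 runs are NF-kB matches, of which the second holds overlapping matches on both strands. The NF-kB consensus was found in 8.46% of all 32851 promoter windows of this length and in 4 of the 8 members' windows. The interferon element core was found in 3.44% of all windows and in those of Cxcl10 and Cxcl14. A match describes the letters and not binding.

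Gene reads numbered 15144957 to 16008351 per library, and 3 counts, the limit that a count of 0 allows, correspond to 0.189 to 0.20 CPM, read counts scaled to TMM-adjusted library size. Itch stood at 96.7 and 103 CPM in WT skin and at 11.7 in both knockouts, on the labelled side in every library. Xist stood at 631 to 1055 CPM in WT skin and 0.892 to 0.947 CPM in Itch KO skin, and the Y-linked Ddx3y at 0.0667 to 0.126 versus 48.0 to 69.1 CPM, so genotype and sex cannot be told apart. WT replicate 1 stood apart from the other libraries: 15 skeletal muscle markers summed to 21222 CPM there and 3360 CPM in WT replicate 2, against 1331 to 1572 CPM in Itch KO skin. The sum of 10 hair shaft markers was 7.67 CPM in that library and 1098 CPM in WT replicate 2, against 1951 to 2698 CPM. Keratinocyte markers, which define the labelled tissue, were present throughout, with Krt5 at 2845 to 2935 CPM. The others were not all even: of the 8 markers, 1 had both knockouts above both WT libraries and 4 had both below. Of all tested genes, 31.2% and 30.0% did so.

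The 4 neutrophil-attracting genes were low in WT skin, at 1 to 21 reads per library, and far higher in both knockout libraries. Cxcl2, the most abundant of them per length in Itch KO replicate 1, stood at 1.13 and 1.33 CPM in WT replicates 1 and 2 and at 542 and 83.4 CPM in Itch KO replicates 1 and 2, from 17, 21, 8575 and 1309 reads. The WT libraries lay close together, the knockouts lay far above them, and Itch KO replicate 1 was 6.49-fold above replicate 2. The log2 fold change of Itch KO over WT was 7.98 (SE 1.24), and edgeR's quasi-likelihood test gave adjusted p = 0.0807. Cxcl3, whose product acts on the same receptor, stood at 0.20 and 0.252 CPM in WT skin and 144 and 17.3 CPM in Itch KO skin, from 3, 4, 2283 and 272 reads (log2 fold change 8.43, SE 1.51, edgeR adjusted p = 0.0985). Again the groups did not overlap, and Itch KO replicate 1 was 8.32-fold above replicate 2. The annotated transcripts of Cxcl2 and Cxcl3 share an identical stretch of 157 bases, so the division of reads between these 2 genes is uncertain to that extent.

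**Figure D1:**
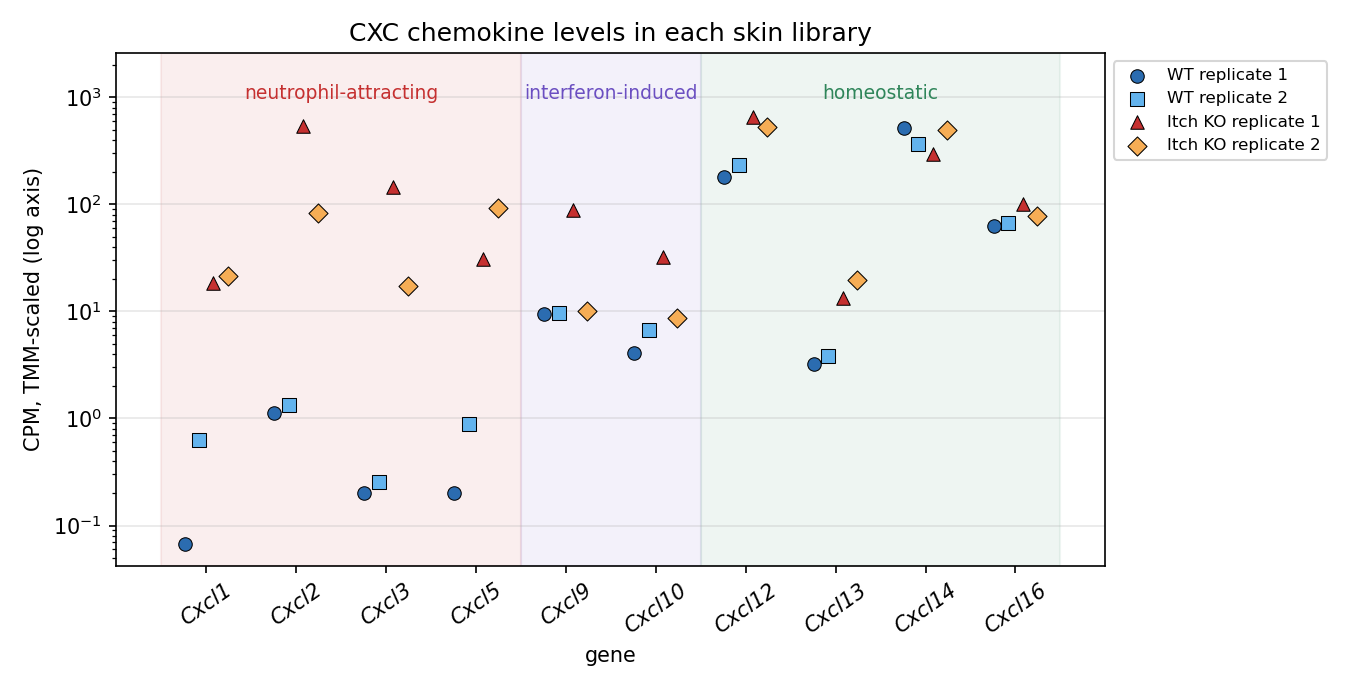
CPM on a log axis for the 10 CXC chemokines in each of the 4 libraries, with 1 point per library. The 4 neutrophil-attracting genes lie at 1.33 CPM or less in both WT libraries and at 17.3 CPM or more in both knockouts, while Cxcl14 overlaps between the groups.

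Cxcl5 and Cxcl1 were also higher in both knockouts but did not share the excess of Itch KO replicate 1. Cxcl5, in mice a neutrophil attractant known from epithelium, stood at 0.20 and 0.884 CPM in WT skin and 30.8 and 93.2 CPM in Itch KO skin, from 3, 14, 488 and 1463 reads (log2 fold change 6.80, SE 0.98, edgeR adjusted p = 0.0766). Here Itch KO replicate 2 was the higher library, by 3.02-fold. Cxcl1, the mouse chemokine also called KC, stood at 0.0667 and 0.631 CPM in WT skin and 18.6 and 21.5 CPM in Itch KO skin, from 1, 10, 294 and 338 reads (log2 fold change 5.80, SE 0.85, edgeR adjusted p = 0.0766). Its knockout libraries were close together, and the WT value of replicate 1 rests on a single read. Within the knockouts, the level of Cxcl2 per kilobase of annotated exon was 15.8 times that of Cxcl5 in replicate 1 and 0.806 times in replicate 2.

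None of the 10 chemokines passed adjusted p under 0.05 in edgeR, where 0.00601% of all tested genes passed as higher (1 gene) and 0% as lower. That gene was the Y-linked Eif2s3y, and sex differed with genotype here. With an unadjusted p below 0.05, 6 of the 10 were higher, namely the 4 ELR genes, Cxcl12 and Cxcl13, and 0 were lower, against 12.0% of all tested genes higher and 10.9% lower. DESeq2 called the same 6 at adjusted p under 0.05, beside 7.83% of all tested genes in that direction and 6.16% in the other. With limma-voom the calls were 0 among the 10 and 0% of all genes. In 9 of the 10 the lower Itch KO value exceeded the higher WT value, as it did in 31.2% of all tested genes, and in 0 of the 10 the order was the opposite, which was so for 30.0% of all tested genes. The median log2 fold change was 7.39 over the 4 ELR genes, 2.14 over the 2 interferon-induced genes and 0.98 over the 4 homeostatic genes, beside 0.01 over all genes tested. These medians describe lists chosen with results of these data known, and the difference between them was not tested.

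**Figure D2:**
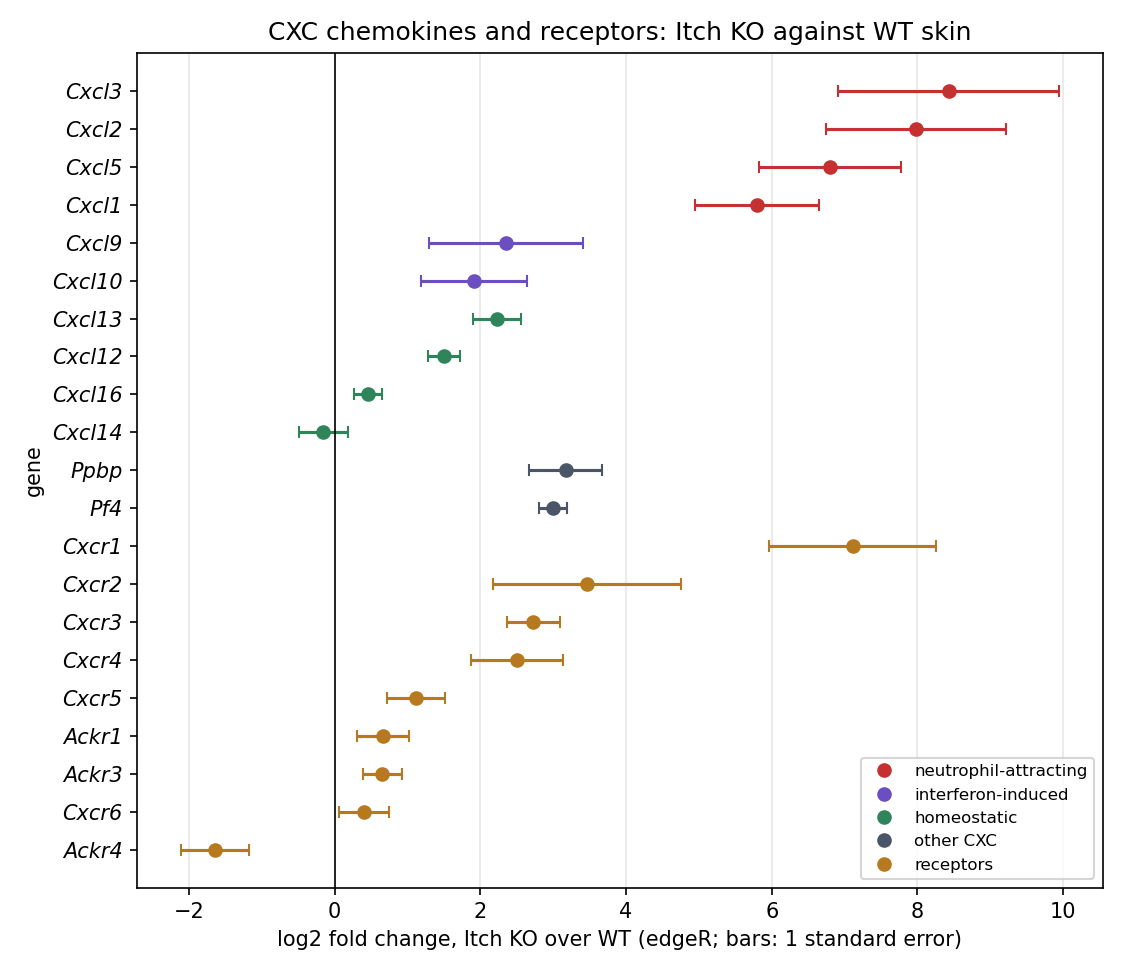
Log2 fold change of Itch KO over WT (horizontal axis) with 1 standard error from edgeR, for CXC chemokines and their receptors with enough reads to test. The 4 neutrophil-attracting genes lie between 5.80 and 8.43, and Ackr4 and Cxcl14 are the 2 genes with estimates under 0.

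Leaving out a library moved the ELR estimates without changing their direction. Without WT replicate 1, the library rich in muscle transcripts, the log2 fold changes of Cxcl1, Cxcl2, Cxcl3 and Cxcl5 were 4.97, 7.87, 8.27 and 6.12, and without WT replicate 2 they were 8.07, 8.10, 8.60 and 8.23. Without Itch KO replicate 1 they were 5.89, 6.07, 6.20 and 7.38, and without Itch KO replicate 2 they were 5.69, 8.78, 9.27 and 5.80. Fits with 1 WT library left out assume that the lone WT library varies like the knockouts, so their calls are not read as support for single genes.

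The 2 interferon-induced chemokines were high in 1 knockout library. Cxcl9 stood at 9.53 and 9.66 CPM in WT skin and 88.2 and 10.2 CPM in Itch KO skin, so that Itch KO replicate 2 lay just above WT. Cxcl10 stood at 4.07 and 6.69 CPM in WT skin and 32.0 and 8.73 CPM in Itch KO skin. Neither passed in any tool: the log2 fold changes were 2.36 (SE 1.06, edgeR adjusted p = 0.275) for Cxcl9 and 1.92 (SE 0.72, edgeR adjusted p = 0.224) for Cxcl10. Without Itch KO replicate 1 they were 0.08 and 0.69. Exons of Cxcl10 overlap those of Art3 on the opposite strand over up to 133 bases, and the strand setting of the counting is not given in the sources used here, so its level is uncertain. Art3 stood at 112 and 40.5 CPM in WT skin and 42.1 and 34.7 CPM in Itch KO skin.

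Between the knockout libraries, Cxcl2, Cxcl3 and Cxcl9 were more than 5-fold apart, as were 0.721% of all tested genes. All 3 were higher in replicate 1, together with Cxcl10 at 3.66-fold. Tnf, an inducer of ELR chemokines, was 10.7-fold higher in that library, and Il1b, encoding interleukin-1 beta, 3.39-fold higher. Cxcl5 went the other way, and so did Il6, an inflammatory cytokine at 4.29 and 23.4 CPM in replicates 1 and 2. These differences compare 2 libraries and have no replicate check.

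**Figure D3:**
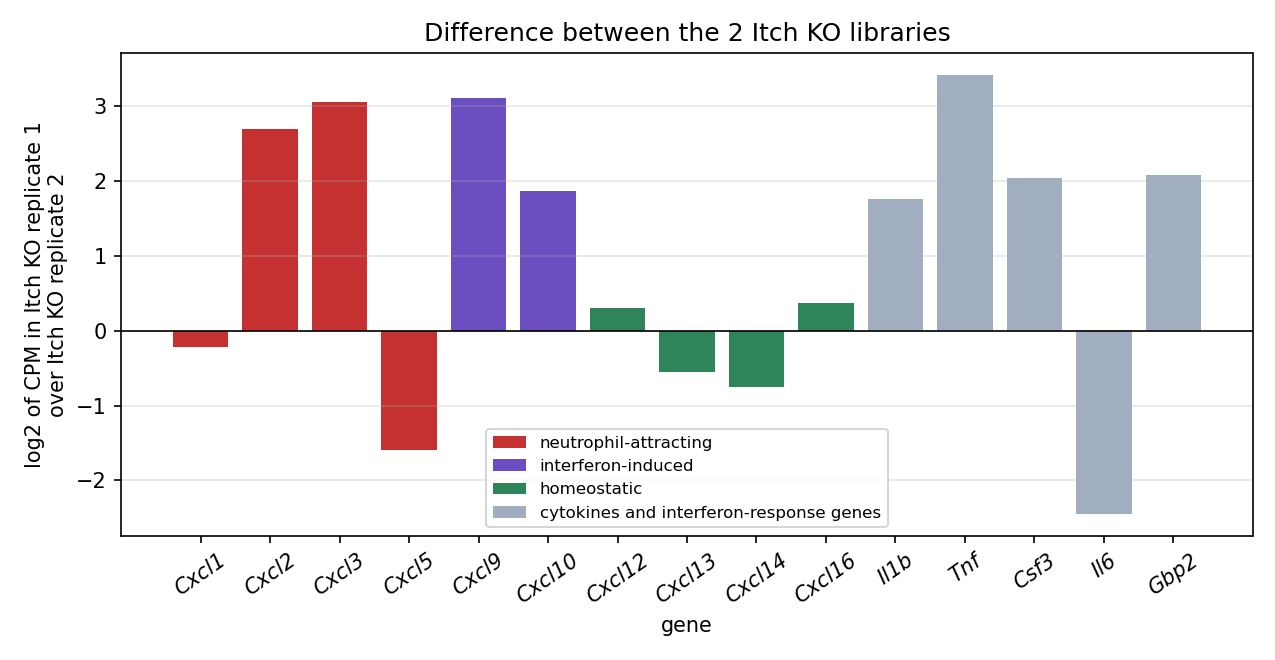
Log2 of CPM in Itch KO replicate 1 over replicate 2 for the 10 chemokines and 5 cytokine or interferon-response genes, with bars from 0. Cxcl2, Cxcl3, Cxcl9, Cxcl10 and Tnf stand above 0, and Cxcl5 and Il6 below it.

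Among the homeostatic chemokines, Cxcl12 and Cxcl13 were higher in both knockouts, Cxcl16 slightly so, and Cxcl14 was not separated. Cxcl12, a stromal chemokine that acts through Cxcr4, stood at 182 and 233 CPM in WT skin and 649 and 528 CPM in Itch KO skin, a ratio of group means of 2.84 (log2 fold change 1.5, SE 0.22, edgeR adjusted p = 0.0766). Cxcl13, the B cell attractant of lymphoid follicles, stood at 3.20 and 3.85 CPM in WT skin and 13.5 and 19.7 CPM in Itch KO skin (log2 fold change 2.23, SE 0.34, edgeR adjusted p = 0.0766). In both genes the spread within each group was smaller than the gap between the groups. Without WT replicate 1 the log2 fold changes were 1.33 for Cxcl12 and 2.10 for Cxcl13, and without WT replicate 2 they were 1.70 and 2.37. Without Itch KO replicate 1 they were 1.34 and 2.47, and without Itch KO replicate 2 they were 1.65 and 1.93. Cxcl16, which is made as a membrane protein and can be shed, stood at 63.5 and 67.0 CPM in WT skin and 101 and 78.4 CPM in Itch KO skin (log2 fold change 0.46, SE 0.19, edgeR adjusted p = 0.243). Its exons overlap those of Zmynd15 on the opposite strand over up to 552 bases, where counting without strand could lose reads as ambiguous. Zmynd15 itself stood at 4.0 to 11.5 CPM.

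Cxcl14 had similar ranges in the 2 groups. It stood at 517 and 366 CPM in WT skin and 296 and 497 CPM in Itch KO skin, and its log2 fold change was -0.15 (SE 0.34, edgeR adjusted p = 0.805). Leaving out WT replicate 1 gave 0.11 and leaving out WT replicate 2 gave -0.38, while 0.17 and -0.57 were obtained on leaving out Itch KO replicates 1 and 2, so its direction rested on single libraries. The failed test does not show that the level was equal.

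The makeup of message from the 10 CXC chemokines followed here differed between the groups. Per kilobase of annotated exon, Cxcl14 ranked first in WT with a mean of 242 ± 58.1 CPM per kb (SD, n = 2), followed by Cxcl12 at 25.4 ± 4.45 and Cxcl16 at 21.6 ± 0.820, each apart from the gene above it. Cxcl9, Cxcl13 and Cxcl10 came next at 3.18, 3.07 and 2.39 CPM per kb with overlapping ranges, and the ELR genes ranked last, from Cxcl2 at 0.595 to Cxcl3 at 0.0647 CPM per kb. In the knockouts Cxcl14 (217 ± 78.1 CPM per kb), Cxcl2 (151 ± 157) and Cxcl12 (72.0 ± 10.5) ranked first, and the range of each overlapped that of the gene above it. Cxcl5 came next at 33.3 ± 23.7 CPM per kb. These orders cover the 10 members only. Pf4, a platelet CXC chemokine gene outside them, stood at 13.0 and 13.5 CPM per kb in WT skin. In Itch KO replicates 1 and 2 it stood at 96.0 and 115 CPM per kb. The exon lengths join all annotated transcripts, 8176 bases for Cxcl12, and understate the level of a gene whose long transcripts are little used.

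As a share of reads on the 10 genes, not corrected for length, the ELR genes made up 0.205% (95% Wilson interval 0.138 to 0.305) in WT replicate 1 and 0.448% (0.339 to 0.592) in WT replicate 2. In Itch KO replicates 1 and 2 they made up 38.4% (37.8 to 38.9) and 15.9% (15.4 to 16.4). The homeostatic genes made up 98.1% (97.8 to 98.3) and 97.2% (96.9 to 97.5) in WT and 55.3% (54.8 to 55.9) and 82.7% (82.2 to 83.2) in Itch KO replicates 1 and 2. The intervals cover counting error only.

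The 4 ELR genes among the members lie in 1 stretch of mouse chromosome 5 (GRCm38), all on the plus strand. It runs from the start of Cxcl5 at 90759360 to the end of Cxcl2 at 90905938. Between them lie Ppbp and Pf4, platelet chemokine genes, and Cxcl15, known from lung. The name ELR genes is used here for the 4 members only, and the motif was not examined in these other genes. Pf4 stood at 9.40 and 9.72 CPM in WT skin and 69.2 and 83.0 CPM in Itch KO skin (log2 fold change 2.99, SE 0.19, edgeR adjusted p = 0.0548). Ppbp stood at 0.133 and 0.189 versus 1.58 and 1.47 CPM (log2 fold change 3.17, SE 0.50, edgeR adjusted p = 0.0802). Both knockouts lay above both WT libraries in Pf4 and in Ppbp, and the estimates were smaller than those of the 4 ELR members. Cxcl15 had 1 read in all, and Cxcl17, a mucosal chemokine gene on chromosome 7, had 7, too few at this depth to detect a difference. Of the platelet markers fixed beside them, Gp6 was at 0 in every library and Gp9 at 0 in WT and at 0.695 and 0.255 CPM in Itch KO skin. Itga2b stood at 4.73 and 9.03 versus 19.1 and 19.6 CPM, and Gp1bb at 4.33 and 7.01 versus 9.16 and 9.49 CPM. The 6 markers, Pf4 and Ppbp included, summed to 18.6 and 25.9 CPM against 99.8 and 114 CPM, and Pf4 made up most of the knockout sums. Their part in the level of Pf4 and Ppbp was not tested.

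The interferon-induced genes form a second group on the minus strand, with Cxcl9 at 92321347 to 92328079, Cxcl10 at 92346638 to 92348889 and Cxcl11 at 92359544 to 92365485. Cxcl11, the third ligand of Cxcr3, had 4 and 3 reads in WT skin and 11 and 2 in Itch KO skin and was too low to test, and its exons overlap those of Gm2673 on the opposite strand. Cxcl13 lies farther along the same chromosome at 95956951 to 95961068. Of the others, Cxcl12 lies on chromosome 6 at 117168535 to 117181367, Cxcl14 on chromosome 13 at 56288643 to 56296551 and Cxcl16 on chromosome 11 at 70453983 to 70459984.

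**Figure D4:**
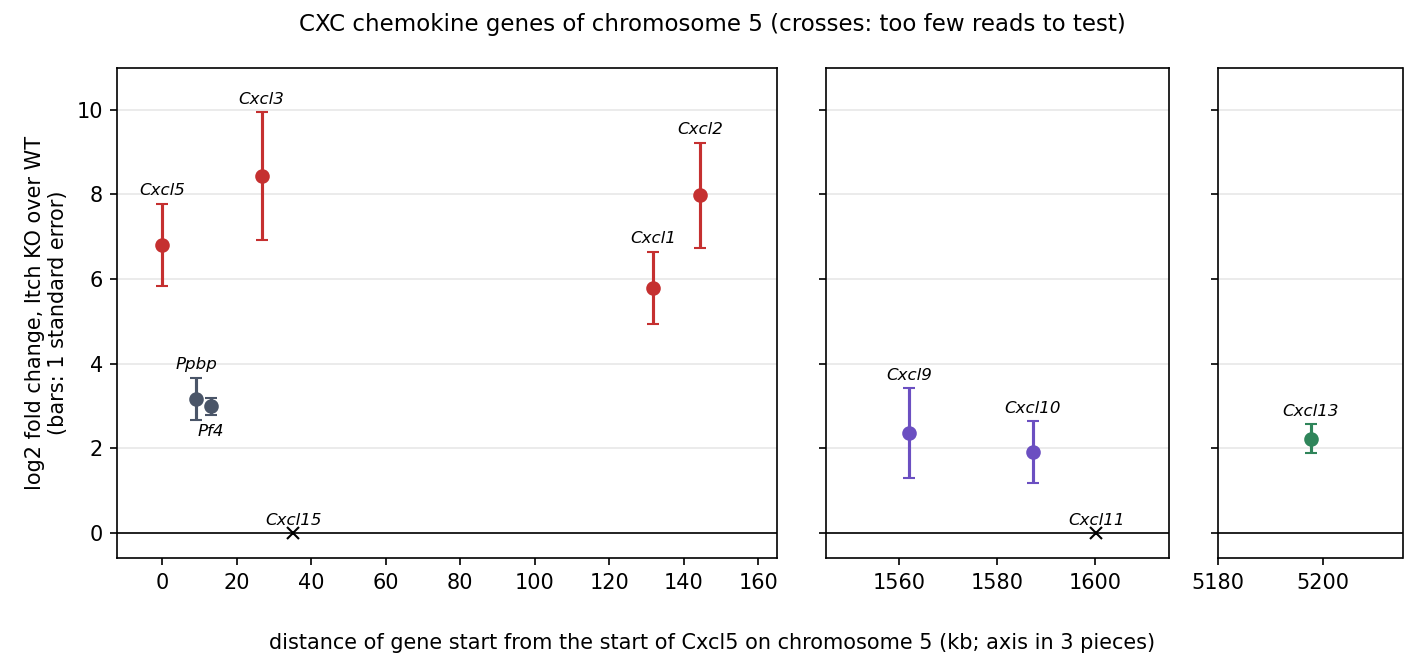
Log2 fold change of Itch KO over WT with 1 standard error against the distance of each gene's start from that of Cxcl5 on chromosome 5, in kb, in 3 pieces of axis. Pf4 and Ppbp, at 2.99 and 3.17, lie between Cxcl5 and Cxcl3 but below both, and crosses mark genes too low to test.

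Receptors of neutrophil attractants were low in WT skin and higher in the knockouts, with a gap between the WT libraries. Cxcr2, the receptor of the ELR chemokines, stood at 0.40 and 7.89 CPM in WT skin and 55.6 and 36.5 CPM in Itch KO skin (log2 fold change 3.47, SE 1.29, edgeR adjusted p = 0.222). Cxcr1 had 1 read over both WT libraries and stood at 8.34 and 2.80 CPM in Itch KO skin, a ratio of 172 with a 95% exact counting interval of 30.5 to 6839. Csf3r, a receptor that marks neutrophils, was even in the WT libraries, at 1.73 and 2.08 CPM, and stood at 79.1 and 51.0 CPM in Itch KO skin.

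Receptors of the other chemokines stood as follows. Cxcr3, which binds Cxcl9 and Cxcl10, stood at 0.933 and 0.884 CPM in WT skin and 6.06 and 6.05 CPM in Itch KO skin (log2 fold change 2.73, SE 0.36, edgeR adjusted p = 0.0703). Its knockout libraries were equal within counting error, unlike those of its ligands. Cxcr4 stood at 5.67 and 13.6 versus 75.9 and 33.5 CPM (log2 fold change 2.51, SE 0.63, edgeR adjusted p = 0.144). Cxcr5, whose exons overlap Bcl9l on the opposite strand, stood at 1.67 and 2.27 versus 4.86 and 3.70 CPM. Cxcr6, the receptor of Cxcl16, overlapped between the groups at 7.47 and 6.75 versus 11.4 and 7.33 CPM.

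Of the atypical receptors, which bind chemokines without drawing cells, Ackr3 and Ackr1 stood slightly above WT and Ackr4 below it. Ackr3, a scavenger of Cxcl12, stood at 59.4 and 37.1 CPM in WT skin and 77.3 and 74.4 CPM in Itch KO skin. Ackr1, which venular endothelium presents, stood at 22.8 and 12.6 versus 30.9 and 25.0 CPM, and its exons overlap those of Cadm3 on the same strand. Ackr4, known mainly as a scavenger of CC chemokines, stood at 132 and 54.9 CPM in WT skin and 32.5 and 27.7 CPM in Itch KO skin (log2 fold change -1.64, SE 0.47, edgeR adjusted p = 0.164), and its exons overlap Acad11 on the opposite strand. Of the 9 receptors, 0 passed in edgeR over all genes. With an unadjusted p below 0.05, 4 were higher and 1 lower, beside 12.0% and 10.9% of all tested genes, and 7 had both Itch KO values above both WT values, beside 31.2%.

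**Figure D5:**
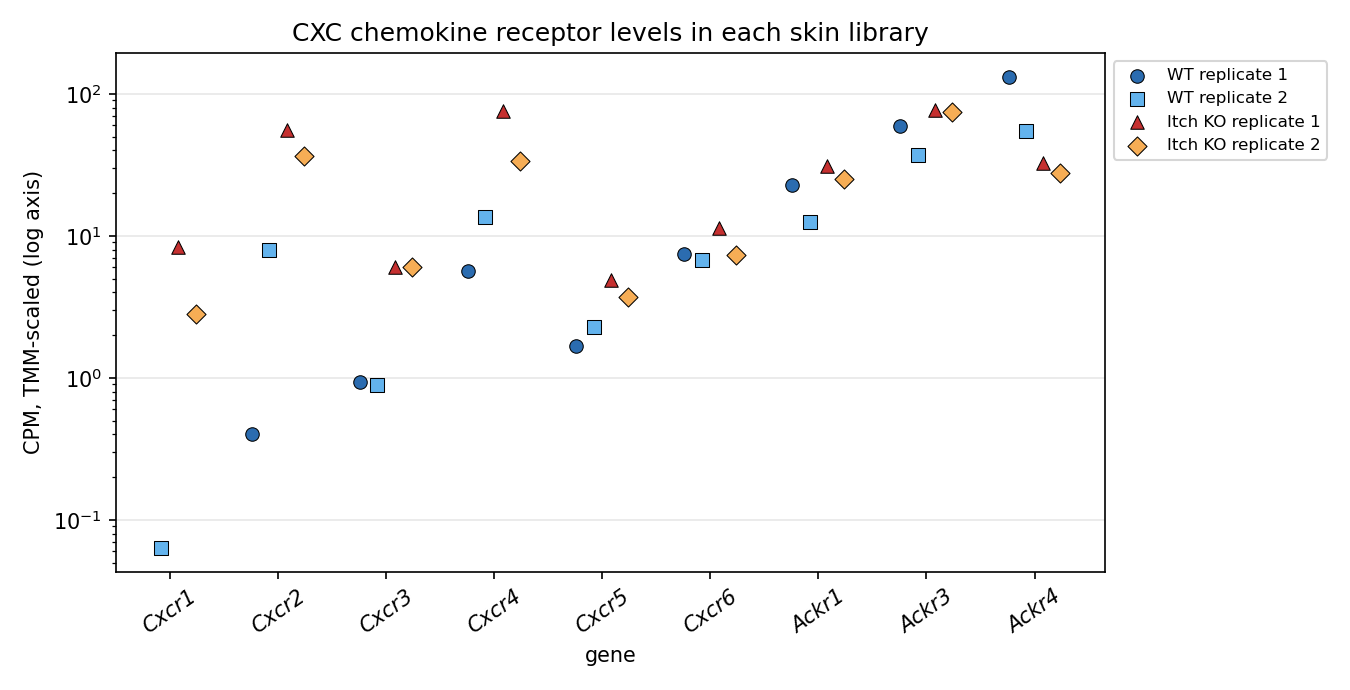
CPM on a log axis for the 9 receptors in each of the 4 libraries, with 1 point per library. The WT libraries differ for Cxcr2, at 0.40 and 7.89 CPM, the count of 0 for Cxcr1 in WT replicate 1 is not drawn, and Ackr4 is the 1 receptor with both knockouts below WT.

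Cytokines known to induce the ELR genes and receptors of such cytokines made up a list of 18 genes, of which 15 could be tested. With an unadjusted p below 0.05, 8 were higher and 1 lower, beside 12.0% and 10.9% of all tested genes, with 0 past the threshold over all genes and a median log2 fold change of 1.00. Osm, the gene of the cytokine oncostatin M, was measured at 0.467 and 0.442 CPM in WT skin and 74.5 and 31.7 CPM in Itch KO skin (log2 fold change 6.84, SE 0.62, edgeR adjusted p = 0.0548). Il1b stood at 2.13 and 5.18 versus 664 and 196 CPM (log2 fold change 6.87, SE 0.94, edgeR adjusted p = 0.0750). Tnfrsf1b, a receptor of tumour necrosis factor, stood at 17.6 and 15.5 versus 119.7 and 62.3 CPM. Tnf stood at 1.87 and 2.84 versus 72.2 and 6.75 CPM (log2 fold change 4.06, SE 1.27, edgeR adjusted p = 0.183). Il17a had 3 reads in Itch KO replicate 1 and 0 elsewhere.

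The list of NF-kB feedback genes held 12, all tested. Of these, 4 were higher and 0 lower with an unadjusted p below 0.05, beside 12.0% and 10.9% of all tested genes, with 0 past the threshold over all genes and a median log2 fold change of 0.41. Bcl3, an atypical NF-kB inhibitor family member, stood at 10.4 and 14.3 CPM in WT skin and 46.0 and 72.7 CPM in Itch KO skin (log2 fold change 2.26, SE 0.33, edgeR adjusted p = 0.0757). Nfkbie, an NF-kB inhibitor, stood at 11.3 and 9.28 versus 26.5 and 19.4 CPM, and Icam1, an adhesion molecule for leukocytes, at 25.9 and 19.1 versus 48.3 and 36.7 CPM.

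The interferon-response list held 20 genes, of which 17 could be tested. With an unadjusted p below 0.05, 8 were higher and 0 lower, beside 12.0% and 10.9% of all tested genes, with 0 past the threshold over all genes and a median log2 fold change of 0.98. Of 19 measured genes, 17 were higher in Itch KO replicate 1 than in replicate 2, the direction seen for Cxcl9 and Cxcl10, as were 49.9% of all tested genes. Ifng, encoding interferon-gamma, stood at 0.133 and 0.252 CPM in WT skin and 1.33 and 0.255 CPM in Itch KO skin and was too low to test. Socs1, a feedback inhibitor, stood at 6.60 and 6.25 versus 16.7 and 20.1 CPM. Irf8, a myeloid transcription factor, stood at 11.5 and 8.27 versus 36.6 and 24.5 CPM, and Oasl2, an antiviral gene, at 13.0 and 11.6 versus 51.8 and 25.9 CPM. Of the 17 tested, 9 had both knockouts above both WT libraries, beside 31.2% of all tested genes, and 8 overlapped between the groups. Among the overlapping genes, Gbp2 stood at 42.9 and 29.9 versus 138 and 32.6 CPM. DESeq2 called 3 of the list higher, beside 7.83% of all tested genes.

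Cell type markers moved with several chemokines, and in bulk skin more cells of a type and more RNA per cell cannot be told apart. The 15 neutrophil markers summed to 37.9 and 50.1 CPM in WT skin and 2436 and 1000 CPM in Itch KO skin, and 14 of 15 were higher in Itch KO replicate 1 than in replicate 2, beside 49.9% of all tested genes. S100a8 stood at 609 and 266 CPM and S100a9 at 1049 and 447 CPM in Itch KO replicates 1 and 2. They made up most of the knockout sums, and bulk skin does not show which cells made these 2 transcripts. Ly6g and Fpr1, neutrophil surface genes, were at 0 in both WT libraries. Elane and Mpo, of the same list, overlapped between the groups and were too low to test, each at 0.0637 CPM in Itch KO replicate 2. The 12 macrophage and monocyte markers summed to 452 and 497 versus 4091 and 2941 CPM, and all 12 had both knockouts above both WT libraries, beside 31.2% of all tested genes. Beside Cxcl12, the 8 dermal fibroblast markers summed to 2219 and 3421 versus 14148 and 12751 CPM and the 7 endothelial markers to 354 and 156 versus 404 and 344 CPM. Beside Cxcl13, the 6 measured markers of the B cell list summed to 1.4 and 0.884 versus 4.48 and 3.70 CPM. Fdcsp, of the same list, had no match, so follicular dendritic cells are not covered by it. Beside the Cxcr3 ligands, the 9 T and NK cell markers summed to 61.4 and 40.6 versus 76.3 and 56.3 CPM, with fold change estimates of its members on both sides of 0 on the log2 scale. Cd3g, a T cell receptor subunit and the most abundant of them, stood at 31.1 and 16.3 versus 19.4 and 15.8 CPM, while Cd4, the helper T cell coreceptor, stood at 0.733 and 2.15 versus 11.1 and 10.7 CPM and Trac, the alpha chain constant region, at 1.00 and 1.07 versus 5.24 and 4.33 CPM. The part of these cells in the chemokine levels was not tested.

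The genes nearest to each chemokine over the 4 libraries were found by the Euclidean distance of centred log2(CPM + 0.5) profiles among tested protein-coding genes, as a description. Nearest to Cxcl2 were Retnlg, a neutrophil gene, Ccl3, a macrophage inflammatory chemokine, and Cxcl3, at distances of 0.657, 0.735 and 0.853. Nearest to Cxcl3 were Ccl3 (0.305), Ccl4 (0.458) and Stfa2l1 (0.630). Cxcl5 had other neighbours, Jchain (0.657) and Il24 (0.934) among them, both higher in Itch KO replicate 2 than in replicate 1. Nearest to Cxcl1 were Prg4 (0.154), Ms4a6d (0.30) and Sprr2i (0.415).

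Cxcl9 had Ubd, Gbp8 and Ptprn as its neighbours, at 0.643, 0.687 and 0.80, and Cxcl10 had Il23a, Ubd and Ankrd66, at 0.326, 0.357 and 0.370. Ubd, a ubiquitin-like gene inducible by interferon-gamma, was thus shared by both and stood at 1.87 and 2.46 CPM in WT skin and 16.7 and 3.25 CPM in Itch KO skin. The neighbours of Cxcl12 were Ripk3, Chpf and Ces2g, and those of Cxcl13 were Pgf, Gata1 and Il4ra, all within 0.150. Those of Cxcl14 were Bcas1, Phyhipl and mt-Co2 and those of Cxcl16 were Ccdc88a, Lsm7 and Aida, all within 0.121. A profile with small differences has close neighbours in any case, so distances are not compared between chemokines. Some neighbours had few reads, and there the 0.5 CPM added before the log shapes the profile. Among them, mt-Co2 stood at 0.442 to 1.07 CPM and Phyhipl at 0.758 to 1.53 CPM over the libraries. Ankrd66 stood at 0 and 0.316 CPM in WT skin.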

How the data were processed

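RNA of 4 mouse skin libraries was sequenced, and the authors deposited 1 file of raw read counts per Ensembl gene for each library. Per the submitters' processing notes, the build was mm10 (GRCm38) and the tools were HTSeq 0.6.1, SAMtools 0.1.19, CASAVA 1.8.2 and TopHat2. Neither the annotation release nor the strand setting is given in the sources used here. Each file ended in 5 counter lines, which were not used in scaling or testing. They held 5.68% to 7.45% of counted reads as lying in no feature and 4.48% to 4.70% as ambiguous.

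Groups and replicate numbers came from the labels. Counts were analysed with edgeR 4.0.16 in R 4.3.3: filterByExpr with a minimum count of 10, TMM scaling, and a two-sided quasi-likelihood F test with legacy=TRUE and robust=TRUE, with Benjamini-Hochberg adjustment over 16651 genes and a threshold of 0.05. The standard error is the log2 fold change divided by the square root of F. CPM is relative to TMM-scaled library sizes. DESeq2 1.42.0, limma-voom (limma 3.58.1), other scalings, no filter, a replicate block and leaving out each library were alternatives. The procedure was tested on simulated counts. Replicates of a group differed by more than counting noise: chi-square over its degrees of freedom was 109 for WT and 23.5 for Itch KO. Symbols, coordinates and exon lengths were taken from GENCODE vM21 (37607 of 39179 identifiers matched) and promoter windows from RefSeq (GRCm38.p6). Of the listed symbols, 3 (the Il36 genes) matched through an older name and 2 (Gbp5 and Fdcsp) had no match.

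The members and lists were chosen with earlier results of these data known. The text names the members, the other CXC chemokine and receptor genes, up to 3 genes of the smallest p from each of the lists of inducers, NF-kB feedback, mRNA stability, interferon response, enzymes and Cxcl12 axis together with Il1b, Il17a, Tnf and Ifng, and the 3 nearest genes of each member; 2 genes that this rule named are not reported here. Itch, Xist, Ddx3y, Eif2s3y, Krt5, Il6, Csf3, Gbp2, Art3, Zmynd15, Csf3r, Adam10, Dpp4, Cd3g, Cd4, Trac, S100a8, S100a9, Ly6g, Fpr1, Elane, Mpo, Gp6, Gp9, Itga2b and Gp1bb were named after their values were seen.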

Additional observations from a re-analysis of the deposited data

How the results depend on the processing

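In edgeR, 1 gene, the Y-linked Eif2s3y, passed as higher and 0 as lower over all genes, and 0 of the 10 chemokines in either direction. These counts were the same with RLE size factors and with library sizes taken without muscle, hair and sex-linked genes, and the median log2 fold change of all genes moved by less than 0.1. Without the low-count filter 420 genes were called higher and 68 lower, with 3 chemokines among them: Cxcl1 at 5.81, Cxcl12 at 1.53 and Cxcl13 at 2.25 (log2 fold change). DESeq2 called 1304 higher and 1025 lower, with 6 chemokines: Cxcl1 at 5.82, Cxcl2 at 7.99, Cxcl3 at 8.48, Cxcl5 at 6.82, Cxcl12 at 1.5 and Cxcl13 at 2.23. In limma-voom 0 genes were called either way. With the replicate number as a block 0 genes were called and 0 chemokines, and the numbers are not stated to pair libraries; the deviations of same-numbered libraries had a correlation of 0.18 across genes, which are not independent. Leaving out 1 library gave 0 to 2657 genes called higher, 0 to 2663 lower and 0 to 3 chemokines higher. In these fits the log2 fold change of Cxcl1 ranged from 4.97 to 8.07, of Cxcl12 from 1.33 to 1.70, of Cxcl13 from 1.93 to 2.47 and of Cxcl14 from -0.57 to 0.17, the latter reversed without WT replicate 1 (0.11) and without Itch KO replicate 1 (0.17). The other 9 chemokines kept their direction under all 10 alternatives. The cause of these shifts was not tested. The read shares within a library do not depend on scaling. With 2 libraries a group, 1 to 21 reads per WT library for each ELR gene limit the size of their fold changes.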

Other observations

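The list of enzymes that cut chemokines or free Cxcl16 from the membrane held 8, of which 7 could be tested. With an unadjusted p below 0.05, 4 were higher and 0 lower, beside 12.0% and 10.9% of all tested genes, with 0 past the threshold over all genes in edgeR and 3 called higher in DESeq2, beside 7.83%. Mmp9, a gelatinase known to cut several chemokines, stood at 27.1 and 22.3 CPM in WT skin and 144 and 111 CPM in Itch KO skin (log2 fold change 2.36, SE 0.22, edgeR adjusted p = 0.0548). Mmp8, a collagenase of neutrophil granules, stood at 0.20 and 0.316 versus 28.5 and 8.98 CPM. Mmp2, a gelatinase of fibroblasts that can inactivate Cxcl12, stood at 94.8 and 128 versus 1082 and 544 CPM. Adam10, a protease that frees Cxcl16, stood at 133 and 139 versus 172 and 146 CPM (edgeR adjusted p = 0.439), and Dpp4, a peptidase that trims several chemokines, overlapped between the groups at 31.8 to 44.9 CPM.

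The list of regulators of chemokine mRNA stability held 8, all tested. Of these, 1 was higher and 1 lower with an unadjusted p below 0.05, a share near the 12.0% and 10.9% of all tested genes and so no result about the list, with 0 past the threshold over all genes and a median log2 fold change of 0.05. Zfp36, encoding tristetraprolin, which promotes decay of AU-rich messages, stood at 76.6 and 81.8 CPM in WT skin and 219 and 194 CPM in Itch KO skin (log2 fold change 1.38, SE 0.16, edgeR adjusted p = 0.0624). Traf3ip2, the adaptor of interleukin-17 receptors, stood at 37.8 and 28.5 versus 21.7 and 20.6 CPM (log2 fold change -0.65, SE 0.22, edgeR adjusted p = 0.20). Elavl1, encoding HuR, which stabilises AU-rich messages, stood at 51.6 and 70.1 versus 82.4 and 111 CPM. Among 6 genes tied to the Cxcl12 axis in tissue, 3 were higher and 0 lower with an unadjusted p below 0.05, beside 12.0% and 10.9% of all tested genes. Pdgfra, a receptor of fibroblasts, stood at 28.1 and 49.7 versus 163 and 156 CPM, Hif1a, a factor of the hypoxia response, at 137 and 126 versus 226 and 209 CPM, and Hspg2, a matrix proteoglycan, at 131 and 114 versus 218 and 183 CPM.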
